A study of Mus musculus with 4 samples.

Results

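The immediate early genes Fos, Fosb, Jun, Junb, Egr1, Atf3, Ier2, Ier3, Nr4a1 and Dusp1 were examined in heart mRNA-seq data of the mouse. These 10 genes were chosen by symbol among the 23282 genes listed for each library, and each symbol had 1 value per library. The hearts came from CDF1 mice, for which the labels give an age of postnatal day 28, the age at purchase by the study's methods, which name male mice. Mice of the E-&T- group neither ran nor received tumor cells, and those of the E+&T- group ran on a motorized treadmill at high intensity every other day. Mice of the E-&T+ group received CT26 murine colorectal cancer cells through the tail vein and did not run, and those of the E+&T+ group received the same cells and ran. The design text names 10 mice per group, but there was 1 heart library per group. The sources used here do not give the number of hearts in a library or the time between the last run and tissue collection. These groups are called control (E-&T-), exercise (E+&T-), tumor (E-&T+) and tumor-exercise (E+&T+) in the following. No value has a replicate check, and no p-value for a condition can be given. The tumor model is a single cell line injected into the blood, so that its spread is not that of a tumor arising in the colon.

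Immediate early genes are transcribed within minutes of a stimulus from factors already present in the cell, without new protein synthesis. Growth factors, mechanical load, adrenergic signals, heat and oxidative stress reach them through MAP kinases, calcium and cyclic AMP, which act on factors such as SRF and CREB at their promoters. Many of their products are transcription factors that drive a later wave of genes, and others, such as DUSP1 and ATF3, damp the response. Their mRNAs are short-lived. In the heart they are known to be induced by pressure overload and ischemia.

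The value of a gene in a library is the deposited log2 value, that is log2(normalized read count + 1), and a log2 fold change is the difference of 2 such values. A gene was called higher or lower when it changed by 2-fold or more and its normalized read count reached 4 in one or both libraries compared. Intervals at 95% were set by the Clopper-Pearson method on the reads recovered for both libraries. They cover counting error only and not the spread between mice or the copying of molecules in PCR. The library totals ran from 6595447 to 11545881 reads. QuantSeq primes at the poly(A) tail and yields about one fragment per transcript, whatever its length. All 8 cardiomyocyte markers examined, among them Myh6, Tnnt2 and Ryr2, had reads in every library, with 3.53% to 5.18% of all reads. Globin genes took 37.3% of the reads of the tumor-exercise library and 7.86% to 8.76% of the others. In a whole heart, fewer cells of a type and less RNA per cell cannot be told apart.

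Promoter sequences were taken by symbol from RefSeq (GRCm38.p6) for 8 of the 10 genes. Ier2 had no entry among the promoters used, and the promoter of Egr1 was left out before the search. The RefSeq start lies inside the GENCODE span for Fosb, Atf3, Ier3, Nr4a1 and Dusp1. The 250 bases before the transcription start of 7 genes are shown. Genes called higher in both exercise vs control and tumor vs control (Fos, Junb, Atf3 and Nr4a1) can thus be set beside genes called in neither (Dusp1, Fosb and Jun). Fosb was called higher in tumor-exercise vs tumor and in tumor-exercise vs exercise. Capitals mark the core of the cyclic AMP response element (TGACG on either strand, part of the full element TGACGTCA) and the TATA box (TATAAA). No match of AP-1 (TGANTCA) or of the CArG box was found in these windows. Bases further upstream and sites that differ from these letters were not searched, so that such sites may be present.
Fos, chr12:85473640-85473889, plus strand: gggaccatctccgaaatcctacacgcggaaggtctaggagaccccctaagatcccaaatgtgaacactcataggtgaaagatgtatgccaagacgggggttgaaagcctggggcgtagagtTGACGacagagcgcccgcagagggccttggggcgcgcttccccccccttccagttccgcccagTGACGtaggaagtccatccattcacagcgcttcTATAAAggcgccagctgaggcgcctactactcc
Junb, chr8:84978749-84978998, minus strand: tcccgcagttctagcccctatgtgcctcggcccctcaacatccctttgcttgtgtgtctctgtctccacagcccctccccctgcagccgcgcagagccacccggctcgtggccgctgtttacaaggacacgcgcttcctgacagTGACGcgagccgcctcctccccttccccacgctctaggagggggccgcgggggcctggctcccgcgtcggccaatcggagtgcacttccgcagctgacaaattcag
Atf3, chr1:191183334-191183583, minus strand: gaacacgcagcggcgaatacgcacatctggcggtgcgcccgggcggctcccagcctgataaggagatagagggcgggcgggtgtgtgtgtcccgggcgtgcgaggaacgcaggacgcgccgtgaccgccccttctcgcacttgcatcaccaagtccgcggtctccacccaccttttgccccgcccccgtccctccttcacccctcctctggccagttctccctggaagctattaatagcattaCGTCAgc
Nr4a1, chr15:101266596-101266845, plus strand: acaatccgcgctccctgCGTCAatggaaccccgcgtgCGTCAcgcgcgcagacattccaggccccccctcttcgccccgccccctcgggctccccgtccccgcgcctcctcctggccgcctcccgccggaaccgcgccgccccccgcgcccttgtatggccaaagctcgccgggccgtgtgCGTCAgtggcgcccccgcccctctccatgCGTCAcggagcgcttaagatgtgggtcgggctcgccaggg
Dusp1, chr17:26508473-26508722, minus strand: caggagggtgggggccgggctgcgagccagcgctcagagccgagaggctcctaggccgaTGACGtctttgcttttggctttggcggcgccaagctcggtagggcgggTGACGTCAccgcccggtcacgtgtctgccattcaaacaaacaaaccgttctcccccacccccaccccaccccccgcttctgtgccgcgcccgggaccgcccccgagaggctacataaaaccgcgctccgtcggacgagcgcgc
Fosb, chr7:19310046-19310295, minus strand: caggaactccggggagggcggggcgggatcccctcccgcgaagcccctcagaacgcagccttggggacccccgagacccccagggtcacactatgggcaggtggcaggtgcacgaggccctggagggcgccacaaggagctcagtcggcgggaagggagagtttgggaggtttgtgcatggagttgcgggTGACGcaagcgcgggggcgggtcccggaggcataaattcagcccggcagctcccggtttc
Jun, chr4:95052223-95052472, minus strand: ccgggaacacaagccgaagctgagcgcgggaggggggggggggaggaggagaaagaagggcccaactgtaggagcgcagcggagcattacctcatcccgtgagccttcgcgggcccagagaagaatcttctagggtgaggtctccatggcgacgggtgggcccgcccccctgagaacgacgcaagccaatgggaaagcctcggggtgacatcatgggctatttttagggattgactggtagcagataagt

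The CRE core lay in 6 of the 8 promoters examined, against 17.8% of all 32851 promoters of the same length. Fos held it at positions -129 and -66 from the start, Fosb at -60, Junb at -106, Atf3 at -7 and Nr4a1 at -233, -213, -69 and -40. Dusp1 held the full element at -143, which 1.55% of all promoters held, and a further core at -191. Jun and Ier3 had no match of the core in this window. TATAAA was found in Fos alone among the 8, at -33, and in 12.4% of all promoters. The letters of the EGR site (GCGGGGGCG) were found in Fosb and Nr4a1 and in 2.57% of all promoters. GGGCGG, the SP1 box, was in 7 of the 8 and in 32.7% of all promoters. The heat shock element GAANNTTC was in Jun and in 6.69% of all promoters. The NR4A site AAAGGTCA was in none of the 8 and in 1.34% of all promoters. All motifs were searched on both strands, and the SP1 box overlaps the EGR site in Fosb and Nr4a1. A match is a description of the letters and not evidence of binding.

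**Figure D1:**
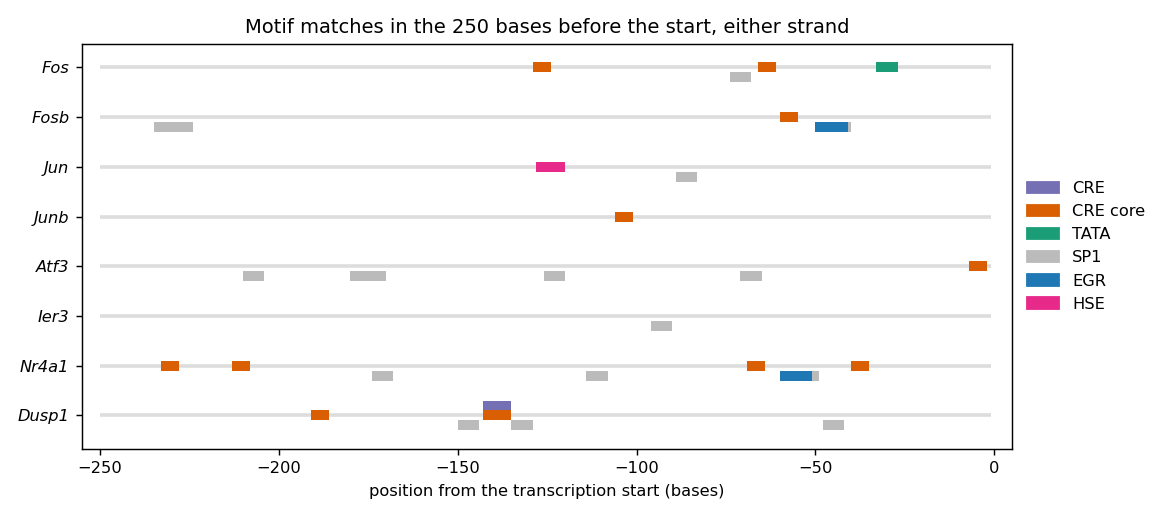
Motif matches on either strand in the 250 bases before the transcription start of 8 immediate early genes, drawn to scale. The x axis gives the distance from the start in bases, each row is a promoter and each colored bar a match. CRE core matches (orange) lie in 6 of the 8 rows and are missing from Jun and Ier3.

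Fos encodes a subunit of the AP-1 transcription factor, which binds DNA as a dimer with a Jun protein. Fos (chr12:85473890-85477273) had 18 reads in control, 109 in exercise, 86 in tumor and 63 in tumor-exercise, at log2 values of 4.45, 6.64, 6.26 and 6.13. The control library was thus the lowest. Adjacent libraries among these 3 were not separated by counting error, with 0.38 (-0.043 to 0.80) between exercise and tumor and 0.14 (-0.35 to 0.63) between tumor and tumor-exercise. The outer pair was, with tumor-exercise below exercise by a log2 fold change of -0.51 (-0.99 to -0.056), which was -1.22 when scaled to library totals. Fosb is its close relative. Fosb (chr7:19302696-19310051) had 12 reads in control, 16 in exercise and 11 in tumor, but 84 in tumor-exercise. Its log2 values were 3.90, 3.94, 3.39 and 6.53, so that a single library stood above 3 that did not differ beyond counting error.

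Jun encodes the main partner of Fos in AP-1. It was the only one of the 10 genes with its lowest deposited value in tumor-exercise, and Junos, an antisense gene not used here, overlaps it. Jun (chr4:95049034-95052222) had 893 reads in control, 1375 in exercise, 685 in tumor and 482 in tumor-exercise, at log2 values of 10.00, 10.28, 9.24 and 9.04. Both tumor libraries lay below both libraries without tumor, and each step in this order exceeded counting error. Junb, a Jun protein that often opposes Jun in growth control, showed another order. Junb (chr8:84974484-84978718) had 163, 468, 1063 and 1401 reads in control, exercise, tumor and tumor-exercise, at 7.56, 8.73, 9.87 and 10.58. Every step of this order exceeded counting error. The 3′ end of Junb lies within an exon of Prdx2 on the opposite strand, with 173 shared exon bases, and the sources used here do not say whether the counting used strand. Prdx2, a peroxiredoxin abundant in red cells, had log2 values of 10.60, 10.55, 10.75 and 11.36. It changed by -0.052 in exercise vs control, 0.15 in tumor vs control, 0.61 in tumor-exercise vs tumor and 0.81 in tumor-exercise vs exercise. Its part in the Junb values was not tested.

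Atf3, a stress-induced repressor of the ATF family that dimerizes with Jun proteins, had the largest range among the 10 genes, at 3.22 on the log2 scale. Atf3 (chr1:191170296-191218039) had 52, 324, 395 and 520 reads, at log2 values of 5.93, 8.20, 8.45 and 9.15 in control, exercise, tumor and tumor-exercise. Nr4a1, an orphan nuclear receptor, had the profile nearest to that of Atf3. Nr4a1 (chr15:101254269-101274795) had 65, 481, 457 and 505 reads, at 6.24, 8.77, 8.66 and 9.11. After centring, the 2 profiles differed by a root mean square of 0.22 over the 4 libraries, the smallest value of all pairs of the 10 genes. In both, the control library stood alone at the bottom.

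Egr1, a zinc finger transcription factor that answers to SRF, had 152 reads in control, 440 in exercise, 583 in tumor and 1206 in tumor-exercise, at log2 values of 7.46, 8.64, 9.01 and 10.37. Its profile was close to that of Junb, with a root mean square difference of 0.32 after centring. Ier2 and Ier3 are small immediate early proteins, Ier3 being known as a regulator of apoptosis and NF-kappa B signaling. Ier2 (chr8:84661331-84662852) had 80, 117, 214 and 209 reads, at 6.54, 6.74, 7.57 and 7.84. Ier3 (chr17:35821684-35822923) had 452, 562, 1062 and 1491 reads, at 9.02, 8.99, 9.87 and 10.67. Both genes had nearly equal values in the 2 libraries without tumor and higher values in the 2 with tumor. Dusp1, a phosphatase that switches off MAP kinases, had the smallest range, at 0.66. Dusp1 (chr17:26505590-26562128, annotated span) had 517, 1035, 1026 and 717 reads, at 9.21, 9.87, 9.82 and 9.62. It shares 11 exon bases with Ergic1 on the opposite strand, away from its 3′ end.

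**Figure D2:**
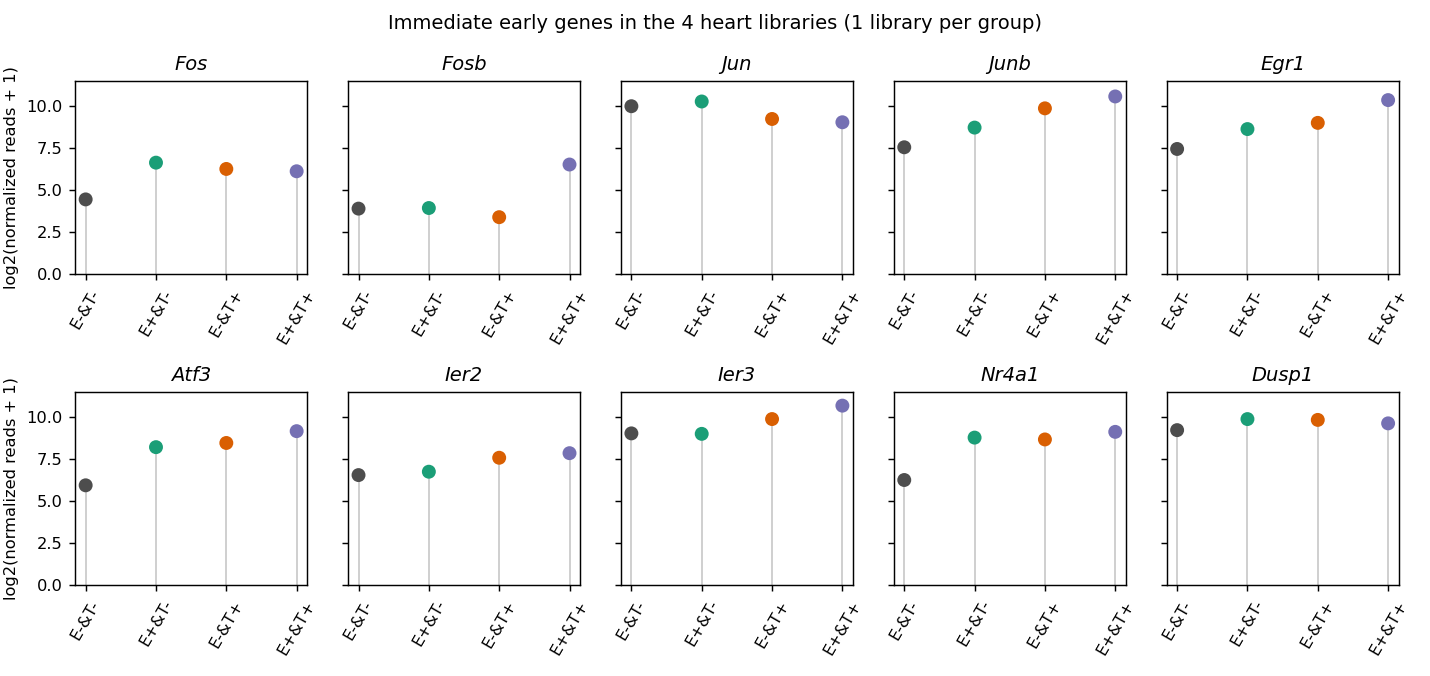
Deposited values of the 10 immediate early genes, 1 panel per gene. The y axis is log2(normalized reads + 1) and each point is the single library of its group. E-&T- is the lowest point in 7 of the 10 panels and E+&T+ the highest in 7, while Jun falls to its lowest value in E+&T+.

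In the absence of tumor, exercise was accompanied by higher levels of 5 of the 10 genes, Nr4a1, Atf3, Fos, Egr1 and Junb. None was lower by 2-fold. Nr4a1 rose by 2.53 on the log2 scale (95% interval 2.17 to 2.94), a fold change of 5.76, Atf3 by 2.27 (1.87 to 2.75) and Fos by 2.19 (1.53 to 3.06). Egr1 rose by 1.19 (0.92 to 1.47) and Junb by 1.17 (0.92 to 1.45), and for both the interval reaches below 2-fold. Among all 13937 genes tested in exercise vs control, 5.88% were called higher and 6.40% lower. Only 136 of them had a larger value than Nr4a1 and 212 a larger one than Fos. The remaining 5 genes stayed within 2-fold, with log2 fold changes of 0.66 (0.51 to 0.81) for Dusp1, 0.28 (0.16 to 0.40) for Jun, 0.20 (-0.22 to 0.64) for Ier2, 0.036 (-1.10 to 1.28) for Fosb and -0.028 (-0.21 to 0.15) for Ier3. The median of the 10 genes was 0.92, against 0.002 for all genes tested.

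With tumor and no exercise, 6 of the 10 genes were called higher and none lower. Atf3 rose by 2.52 (2.13 to 2.99), Nr4a1 by 2.42 (2.06 to 2.83), Junb by 2.32 (2.09 to 2.57), Fos by 1.81 (1.13 to 2.70) and Egr1 by 1.55 (1.30 to 1.83). Ier2 rose by 1.03 (0.66 to 1.43), just past 2-fold, and it was at 0.88 when reads were scaled to library totals, below 2-fold. Among all 14317 genes tested in tumor vs control, 14.6% were called higher and 13.1% lower. The median of the 10 genes was 1.29, against -0.011 for all genes tested. Ier3 had a log2 fold change of 0.85 (0.69 to 1.02) and Dusp1 one of 0.61 (0.46 to 0.77). Jun had -0.76 (-0.91 to -0.62), and Fosb had -0.51 (-1.83 to 0.80) on 11 and 12 reads. The comparisons exercise vs control and tumor vs control share the control library, so that a low value there enters both.

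In tumor-bearing mice, exercise was accompanied by a higher level of 2 of the 10 genes, Fosb and Egr1. Fosb rose by 3.13 (2.33 to 4.30), a fold change of 8.78, on 84 reads against 11, and only 92 of the 14363 genes tested had a larger value. Egr1 rose by 1.36 (1.22 to 1.504). Among all genes tested in tumor-exercise vs tumor, 9.39% were called higher and 10.0% lower, so that 2 of 10 is near this background. Log2 fold changes between 0.45 and 0.80, with intervals above 0, were measured for Ier3 at 0.80 (0.69 to 0.91), Junb at 0.71 (0.59 to 0.82), Atf3 at 0.70 (0.52 to 0.90) and Nr4a1 at 0.45 (0.27 to 0.64). Ier2 was at 0.27 (-0.0058 to 0.56). Fos had -0.14 (-0.63 to 0.35), Jun had -0.20 (-0.37 to -0.027) and Dusp1 had -0.21 (-0.35 to -0.068). The median of the 10 genes was 0.58, and scaling to library totals brought it to -0.0060, with all genes then at a median of -0.60. Under that scaling Fosb was still called, at 2.54, and Egr1 was at 0.77 and no longer reached 2-fold. Of all genes tested, 3.81% were then called higher and 25.6% lower. Ier3 was then at 0.21, Junb and Atf3 were at 0.12, Nr4a1 was at -0.13 and Ier2 at -0.31. Fos was at -0.71, Jun at -0.78 and Dusp1 at -0.79.

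Between exercised mice with and without tumor, 5 of the 10 genes were called higher with tumor and 1 lower. Fosb rose by 2.59 (1.88 to 3.54), Junb by 1.85 (1.70 to 2.01), Egr1 by 1.73 (1.57 to 1.89), Ier3 by 1.68 (1.54 to 1.82) and Ier2 by 1.10 (0.78 to 1.45). Jun fell by 1.24 (-1.39 to -1.09), the only 2-fold decrease of any of the 10 genes in the 4 comparisons by deposited values. Of all 14289 genes tested in tumor-exercise vs exercise, 12.0% were called higher and 11.1% lower. Atf3 had a log2 fold change of 0.95 (0.75 to 1.16), Nr4a1 one of 0.34 (0.16 to 0.53), Dusp1 one of -0.26 (-0.40 to -0.12) and Fos one of -0.51 (-0.99 to -0.056). Scaling to library totals left 3 genes called higher and 2 lower, with the median of all genes at -0.74. Of all genes tested, 5.62% were then called higher and 35.3% lower, so that 2 of 10 lower is under this background. Fosb was then at 1.88, Junb at 1.13, Egr1 at 1.01, Ier3 at 0.96 and Ier2 at 0.39. Atf3 was at 0.24, Nr4a1 at -0.37, Dusp1 at -0.97, Fos at -1.22 and Jun at -1.96. The median of the 10 genes was 1.03, and 0.31 under that scaling.

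**Figure D3:**
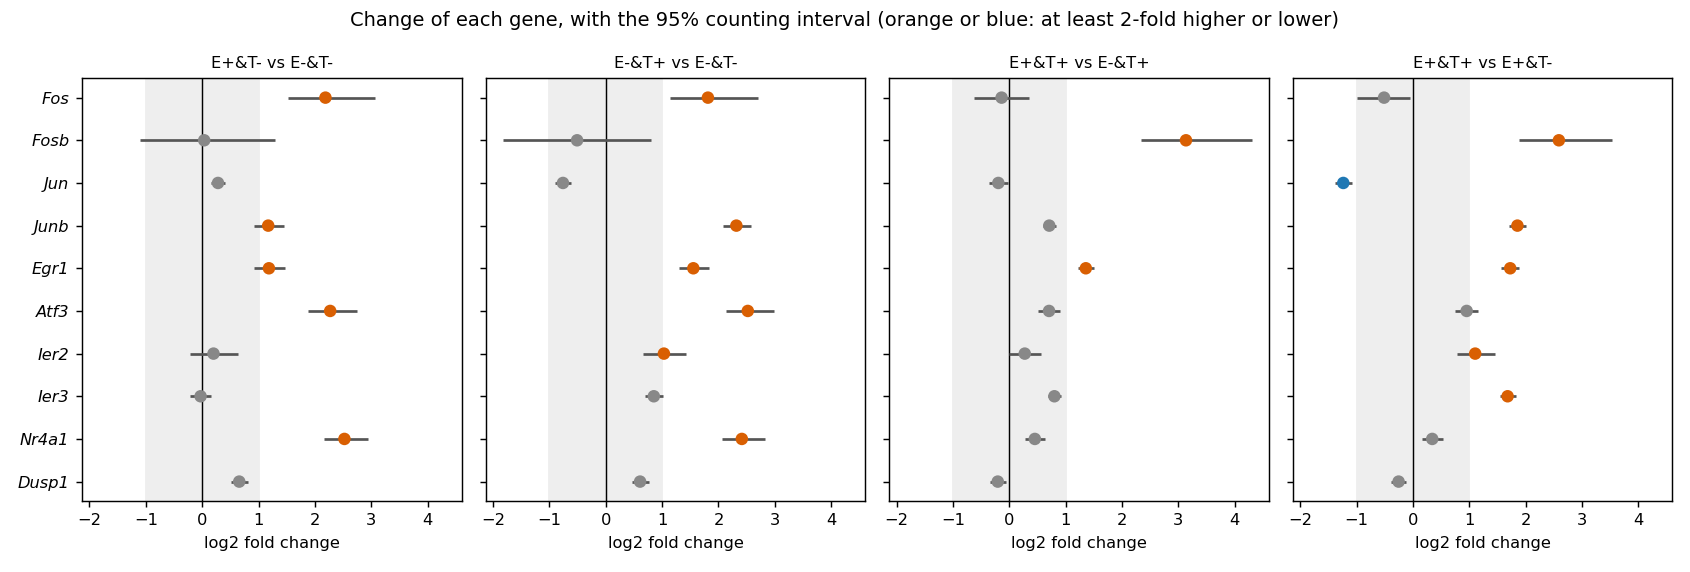
Log2 fold changes of the 10 genes in the 4 comparisons (x axis), with 95% intervals of counting error as bars and the range within 2-fold shaded. Orange points are at least 2-fold higher and blue points at least 2-fold lower. Nr4a1, Atf3 and Fos lie far to the right in both comparisons with E-&T-, and Fosb only in the 2 comparisons that involve E+&T+.

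The change with exercise was set side by side in mice without and with tumor, 2 comparisons that share no library. Nr4a1 changed by 2.53 without tumor and 0.45 with it, a difference of -2.07 (95% Wald interval of counting error -2.49 to -1.66). For Fos the difference was -2.33 (-3.18 to -1.47), and for Atf3 it was -1.57 (-2.03 to -1.11). In all 3 genes, the tumor library lay near or above the exercise library, at 6.26 against 6.64 for Fos, 8.45 against 8.20 for Atf3 and 8.66 against 8.77 for Nr4a1. The tumor library was also above the exercise library for Egr1, at 9.01 against 8.64, and for Junb, Ier2 and Ier3. The part of these levels in the differences was not tested. Fosb had the opposite difference, at 3.10 (1.69 to 4.51), and Ier3 had 0.83 (0.62 to 1.04). For Egr1 the changes were 1.19 and 1.36, a difference of 0.17 (-0.13 to 0.47), and for Ier2 the difference was 0.072 (-0.42 to 0.57). Junb had a difference of -0.46 (-0.75 to -0.18). On the log2 scale, Junb and Egr1 in tumor-exercise lay 3.03 and 2.91 above control, where the separate changes of exercise and tumor add to 3.49 and 2.74. Nr4a1 lay 2.87 above, where the sum is 4.94, and Fos 1.68, where it is 4.00. By construction, the gap between each value and its sum is the difference already given, so that it is no further observation. These differences are of deposited values, and scaling to library totals puts the median of all genes at -0.019 in exercise vs control and at -0.60 in tumor-exercise vs tumor. Under that scaling Egr1 changed by 1.17 without tumor and 0.77 with it, and Ier2 by 0.18 and -0.31. The difference of both genes thus took the opposite sign. Ier3 then changed by -0.048 and 0.21. Junb changed by 1.16 and 0.12, so that its difference was larger in size. The intervals cover counting error, and with 1 library per group the differences between conditions were not tested.

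**Figure D4:**
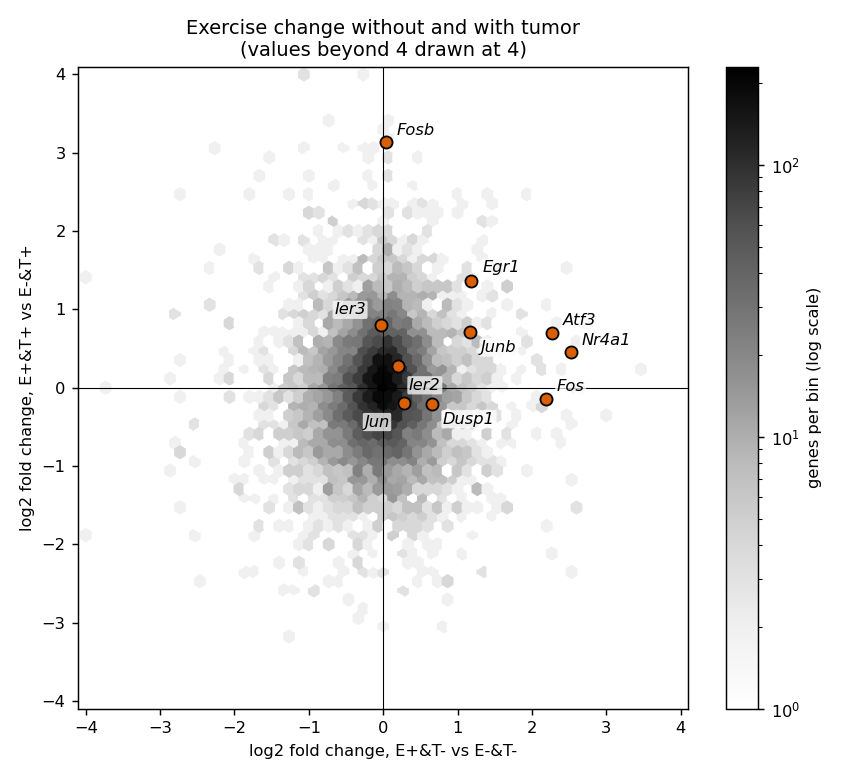
Log2 fold change with exercise in mice without tumor (x axis) and with tumor (y axis). Orange points are the 10 genes and gray hexagons count all genes tested in both comparisons. Nr4a1, Atf3 and Fos lie to the right and near the x axis, Fosb lies high on the y axis, and Egr1 is past 1 on both axes.

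Together the 10 genes took 0.0365% of all reads in control (95% Clopper-Pearson interval 0.0350% to 0.0379%), 0.0581% in exercise, 0.0586% in tumor and 0.0578% (0.0565% to 0.0592%) in tumor-exercise. Counted among reads outside the globin genes, these shares were 0.0400%, 0.0634%, 0.0636% and 0.0922%. The position of tumor-exercise above the other 2 libraries therefore depends on how its globin reads are treated. By deposited values, 7 of the 10 genes were highest in tumor-exercise. Scaled to library totals, these were 5, namely Fosb, Junb, Egr1, Atf3 and Ier3, while Nr4a1 was then highest in exercise and Ier2 in tumor. The control was the lowest library of 7 genes by deposited values and of 6 by library totals.

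Other genes of the same families and pathways were examined in lists, read against the share of all genes called in each comparison. The AP-1 and related bZIP list held 10 genes, of which 5 were called higher and 1 lower in exercise vs control, with a median of 0.90. Those called higher included Fosl1, on 1 read in control and 5 in exercise (-1.18 to 7.54), and Batf3, on 2 and 12 (0.076 to 5.44). Both reached the minimum of 4 only through the exercise library. Maff, a small Maf protein without an activation domain, rose by 1.68 in this comparison (1.22 to 2.22), Jdp2, a repressor of AP-1, by 1.59 (1.21 to 2.02), and Fosl2, a Fos-related subunit, by 1.39 (1.19 to 1.60). Maff had 44 reads in control, 182 in exercise, 321 in tumor and 622 in tumor-exercise, and Fosl2 had 260, 865, 972 and 1341. Both had the order seen for Junb, Egr1 and Atf3. With tumor and no exercise, 5 of the list were called higher and 1 lower, among them Maff at 2.46 (2.03 to 2.98) and Mafk at 1.09 (0.89 to 1.31). Fosl1, on 18 reads in tumor (1.13 to 9.17), and Batf3, on 10 (-0.29 to 5.17), again reached the minimum only through the higher library. In tumor-exercise vs tumor, Maff alone was called, at 1.26 (1.07 to 1.46). Jund, the Jun protein with the steadiest expression in most tissues, stayed within 2-fold in all 4 comparisons. Its log2 values of 10.11, 10.69, 10.54 and 10.85 did not show the lower levels that Jun had in both tumor libraries.

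The EGR and NR4A list held 7 genes, and Egr4 had 0 reads in all 4 libraries. In exercise vs control, 3 of the 6 genes tested were called higher, namely Egr2, Nr4a3 and Egr3, and none lower. Nr4a3 had 16 reads in control, 110 in exercise, 114 in tumor and 142 in tumor-exercise, with control lowest and tumor-exercise highest as for its relative Nr4a1. It rose by 2.36 (1.68 to 3.30) with exercise and by 2.37 (1.69 to 3.31) with tumor. Egr2 had 1 read in control and 28 in exercise, a log2 fold change of 3.48 (1.87 to 9.82), and reached the minimum only through the exercise library. Egr3 followed exercise in both states, with 9 reads in control, 52 in exercise, 8 in tumor and 38 in tumor-exercise. It rose by 2.07 (1.15 to 3.40) without tumor and by 2.43 (1.44 to 3.87) with tumor. Nr4a2 had 44, 95, 34 and 109 reads and rose by 1.96 (1.42 to 2.59) in tumor-exercise vs tumor. Nab2, a corepressor of EGR proteins, had a log2 fold change of -0.78 (-1.26 to -0.34) there.

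A list of MAP kinase phosphatases other than Dusp1, with the Sprouty and Spred inhibitors of the same pathway, was examined next. Of its 13 genes tested, none was called higher and 1 lower in exercise vs control, with a median of -0.15, and 1 was called higher and 3 lower in tumor vs control. Dusp6, a phosphatase of ERK, had log2 values of 8.47, 8.81, 8.59 and 9.29. Of 22 upstream kinases and factors, 1 was called higher and none lower in exercise vs control, and the medians of the 4 comparisons lay between -0.24 and -0.052. Srf, which binds the CArG boxes of many immediate early promoters, had log2 values of 10.49, 10.92, 10.46 and 10.84. Creb1, which binds the cyclic AMP response element, had values of 9.04, 9.03, 8.37 and 8.23.

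Further immediate early genes outside these families were 30, of which 8 were called higher and none lower among the 28 tested in exercise vs control. In tumor vs control, 16 of 29 were called higher and none lower, with a median of 1.21. Plk3, on 3 reads in control, was among the genes called in both comparisons, and Myc, on 0, in the second. These 2 genes reached the minimum only through the higher library. Socs3, an inhibitor of cytokine receptor signaling, had 76, 243, 779 and 1398 reads, so that it rose by 1.32 (0.96 to 1.73) with exercise and by 2.96 (2.64 to 3.34) with tumor, and by a further 1.15 (1.03 to 1.28) in tumor-exercise vs tumor. Sik1, a kinase induced by cyclic AMP, had 35, 154, 261 and 287 reads and rose by 1.76 (1.26 to 2.37) and 2.48 (2.01 to 3.07). Btg2, an antiproliferative gene, rose by 2.49 (2.29 to 2.72) with tumor and fell by 1.19 (-1.33 to -1.05) in tumor-exercise vs tumor. Ctgf, a matrix-associated growth factor target, fell by 2.15 (-2.21 to -2.08) there, on 2238 reads against 12279. In that comparison 2 of 29 genes of the list were called higher and 3 lower, with a median of -0.054.

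**Figure D5:**
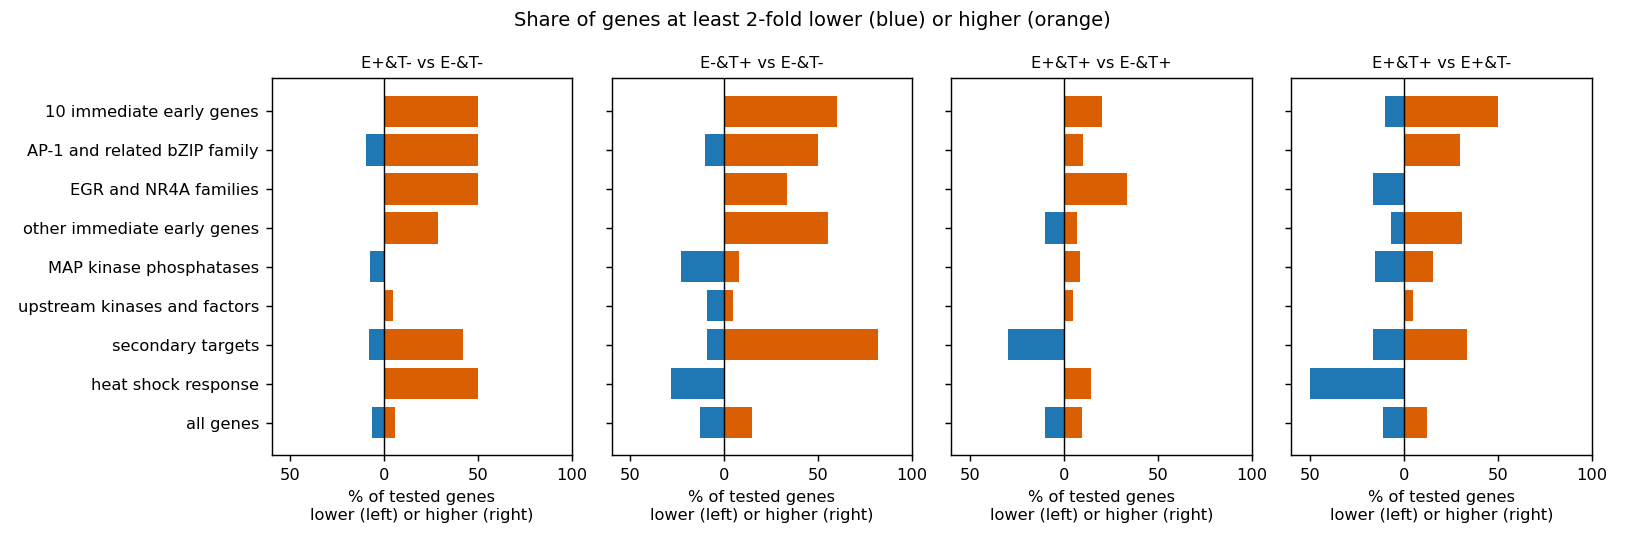
Share of the tested genes of each list that were at least 2-fold higher (orange, to the right) or lower (blue, to the left) in each comparison, with all genes in the bottom row. The 10 immediate early genes reach 50% and 60% higher in the comparisons of E+&T- and E-&T+ with E-&T-, and the heat shock list is at 50% higher in the former and 50% lower in E+&T+ vs E+&T-.

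Heat shock genes, which answer to misfolded protein, were called higher in 1 of the comparisons with control and not in the other. In exercise vs control, all 14 genes of this list had positive log2 fold changes and 7 were called higher, with a median of 1.10. Hspa1a, the inducible HSP70, had 71, 3848, 34 and 53 reads in control, exercise, tumor and tumor-exercise. In tumor vs control, none of the 14 was called higher and 4 were called lower, with a median of -0.51, while 6 of the 10 immediate early genes were called higher. Smooth muscle markers moved in both. All 4 of them (Acta2, Myh11, Tagln and Cnn1) were called higher in exercise vs control and 3 in tumor vs control, and their summed normalized reads were 2098 in control, 6004 in exercise, 4606 in tumor and 4213 in tumor-exercise. Of 6 neutrophil markers, 5 were called higher in tumor vs control, with summed normalized reads of 125 in control, 84.3 in exercise, 3007 in tumor and 5757 in tumor-exercise. Mpo had 0 reads in control and Cxcr2 had 3, and both reached the minimum only through the tumor library. Of 6 adipocyte markers, 5 were called lower in both exercise vs control and tumor vs control, and 5 higher in tumor-exercise vs tumor. Of 6 fibroblast and 6 macrophage markers, 3 each were called higher in tumor vs control and none lower, while 3 and 2 of them were called lower in tumor-exercise vs tumor and none higher. Of 6 endothelial markers, 3 were called lower in tumor vs control and none higher, with a median of -0.92. They were split, as 4 had negative values. Pecam1 and Egfl7 rose within 2-fold, by 0.55 (0.46 to 0.64) and 0.78 (0.68 to 0.88). All 7 erythroid markers were called higher in both comparisons of tumor-exercise. The part of heat shock genes and of these cell types in the values of the 10 genes was not tested.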

How the data were processed

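Hearts of the E-&T-, E+&T-, E-&T+ and E+&T+ groups were represented by 1 QuantSeq library each, grouped by title. Per the labels and the study's methods, the authors aligned reads to mm10 with Bowtie2, counted them with bedtools and applied a quantile normalization of edgeR, with versions not given in the sources used here. The deposited values are log2 values of the normalized read count plus 1. Whole reads were recovered by inverting this adjustment with fitted library sizes and 1 dispersion (0.149) for all genes, after which every deposited value was given back within 0.00056. For 5 to 99 reads, all 25460 values came out whole within a tolerance of 0.1. The totals were 6595447 to 11545881 reads, and a library with 0 reads of a gene allows up to 3. Reads served for intervals and for the alternatives, which covered scaling, minimum, pseudocount, fold and depth. The recovery and the calls were tested on simulated data made with the same adjustment, with changes larger than 2-fold in well-counted genes. Such data cannot check the adjustment itself, or calls near 2-fold or on few reads. No genome sequence was needed beyond RefSeq promoters (GRCm38.p6) and GENCODE M21 coordinates (GRCm38, the build called mm10).

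The 10 genes and the lists were chosen with earlier results of these data known, so that they are not independent evidence. Of each list, up to 4 genes per comparison were named by the size of their change, provided that they averaged 16 or more normalized reads. Srf, Egr4 and Il6 were named after their values were seen. The 5 genes most like the 10 were taken by the root mean square difference of centred log2 values. Scripts ran in Python 3.11.15 with pandas 2.3.3, matplotlib 3.10.9, numpy 2.4.6 and scipy 1.17.1. The lymphocyte marker list is not reported here.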

Additional observations from a re-analysis of the deposited data

Results flagged for a closer look

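For 2 genes, the log2 fold change with exercise was positive without tumor and negative with tumor, each beyond counting error. Jun changed by 0.28 without tumor and by -0.20 with it, a difference of -0.48. Dusp1 changed by 0.66 and by -0.21, a difference of -0.86. Both genes stayed within 2-fold in these comparisons, and with 1 library per group the differences were not tested.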

How the results depend on the processing

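With 1 library per group, leaving out a replicate was not possible. No paired analysis was possible because no group has more than 1 library. Scaling to library totals had the largest effect, since it moved the median of all genes to -0.60 in tumor-exercise vs tumor and to -0.74 in tumor-exercise vs exercise. There it gave 1 gene called higher in place of 2 and a median of the 10 genes of -0.0060 in the former comparison. In the latter it gave 3 called higher in place of 5, 2 called lower in place of 1 and a median of 0.31. Of all genes tested, this scaling called 3.81% higher and 25.6% lower in the former and 5.62% and 35.3% in the latter. A 1.5-fold threshold gave 5 genes called higher in tumor-exercise vs tumor and 1 called lower, Jun, in tumor vs control, where 2-fold gave 0. Of all genes tested, 17.5% were higher by 1.5-fold in the first of these comparisons. In the second 23.7% were lower, so that 1 of 10 is under this background. The other 77 of 84 counts and medians stayed within 1.5 times or within counting error. Of 200 values of single genes, 172 stayed within their counting interval and 28 moved, and no called gene changed direction. Genes with under 20 reads in a library, Fos in control and Fosb in 3 libraries, have the widest intervals.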

Other observations

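The 5 genes outside the lists whose centred profile over the 4 libraries was nearest to the mean profile of the 10 immediate early genes, among 11486 candidates that averaged 16 or more normalized reads, were Myrip, 5430416N02Rik, Samd14, P2ry2 and Dkk3. Their root mean square differences were 0.028, 0.075, 0.082, 0.087 and 0.094 on the log2 scale. P2ry2, a nucleotide receptor, had 75 reads in control, 208 in exercise, 205 in tumor and 264 in tumor-exercise, and Dkk3, a secreted protein of the Dickkopf family, had 122, 365, 434 and 523. Myrip had only 11, 29, 34 and 44 reads. This likeness over 4 libraries is a description.

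Genes known as later targets of AP-1 and EGR factors formed a list of 16. In tumor vs control, 9 of the 11 tested were called higher and 1 lower, against 14.6% and 13.1% of all genes tested. In tumor-exercise vs tumor, none of 10 was called higher and 3 were called lower, against 9.39% and 10.0%. The other listed genes did not reach the minimum, and the genes tested were not the same in both comparisons. Of 6 fibroblast markers, 3 were called lower in tumor-exercise vs tumor, with a median of -1.14, and of 6 macrophage markers 2 were called lower, with a median of -0.81. Their part in the values of this list was not tested. Mmp3, a matrix protease, had 29 reads in control, 98 in exercise, 1173 in tumor and 311 in tumor-exercise. Ccl2, a monocyte chemokine, had 15, 32, 165 and 77 reads. Plaur, the urokinase receptor, had 9, 33, 41 and 39. Il6 had 0 reads in all 4 libraries, which allows up to 3 reads in each.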
